A study of Mus musculus with 5 samples.

Results

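The genes described here are 10 that make glutathione or remove superoxide and peroxides: Gclc, Gclm, Gsr, Gpx1, Gpx4, Cat, Sod1, Sod2, Prdx1 and Nqo1. Membership goes by gene symbol alone, and all 10 are among the 18018 genes of the unsmoothed table of single mouse hepatocytes, the parenchymal cells of the liver. Hepatocytes were isolated from male C57BL/6J littermates that were 8 weeks old when their diet began and were then fed for 12 weeks. The groups were 3 mice on a high-fat diet (HFD) and 2 mice on a low-fat diet (LFD, also labelled as regular chow), each run as its own Drop-seq experiment. Drop-seq encloses cells in droplets with barcoded beads and counts captured transcripts as unique molecular identifiers (UMIs). The labels give no composition for either diet.

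Glutathione is a tripeptide that hepatocytes hold in large amounts. Glutamate-cysteine ligase, made of a catalytic subunit (Gclc) and a modifier subunit (Gclm), carries out the rate-limiting step of its synthesis, and glutathione reductase (Gsr) returns the oxidised form to the reduced one with NADPH. Superoxide dismutases turn superoxide into hydrogen peroxide, in the cytosol (Sod1) and in mitochondria (Sod2), and the peroxide is then removed by glutathione peroxidases, peroxisomal catalase (Cat) and peroxiredoxins. Hepatocytes differ in metabolism along the axis of the liver lobule, from the portal vein (periportal) to the central vein (pericentral).

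The library of HFD mouse 1 differed from the rest. It gave 5 cells with 27903 UMIs, against 208 cells with 656803 UMIs in HFD mouse 2, 25 cells with 58470 UMIs in HFD mouse 3, 132 cells with 446868 UMIs in LFD mouse 1 and 84 cells with 309050 UMIs in LFD mouse 2. Mitochondrial transcripts took 8.98% of its UMIs, against 5.10% to 5.63% in the others. Transcripts of the sinusoidal endothelial list summed to 1075 CPM (UMIs per 1000000 UMIs of the library) in it, from 2 of 10 markers, against 15.7 to 34.2 CPM in the others. Erythroid transcripts summed to 502 CPM in it, to 291 CPM in HFD mouse 3 and to 3.24 to 13.7 CPM in the rest. The part of these transcripts in the results was not tested, and the tests below were also run without this mouse. Every cell held at least 9 of 10 hepatocyte markers, and no cell barcode was shared between libraries.

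A motif search used RefSeq promoters (build GRCm38.p6), which were found for 8 of the 10 genes. The searched letters were TGACNNNGC, a core of the antioxidant response element that the factor NRF2 is known to bind, on both strands within 250 bases before the gene start. Gclm, Sod1 and Prdx1 held a match, which is 37.5% of the 8 genes with a promoter, against 11.5% of all 27025 genes with one. A match is a description of letters and not a shown binding site. The 3 matches are shown because they are the stretches of these promoters that carry the motif. Each window has 49 bases, the capitals mark the motif, and because each lies on the reverse strand it reads GCNNNGTCA here.
Gclm, chr3:122245403-122245451, plus strand: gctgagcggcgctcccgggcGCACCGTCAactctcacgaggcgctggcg
Sod1, chr16:90220686-90220734, plus strand: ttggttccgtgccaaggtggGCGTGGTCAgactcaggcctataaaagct
Prdx1, chr4:116685446-116685494, plus strand: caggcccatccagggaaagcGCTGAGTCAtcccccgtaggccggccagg
The motif starts 134 bases before the RefSeq start in Gclm, 56 in Sod1 and 133 in Prdx1. Counted from the GENCODE gene start, which is used for gene positions below, it lies 134, 48 and 78 bases before it. The other searched promoters (Gpx1, Gpx4, Cat, Sod2 and Nqo1) held no match to these letters in this window, from which nothing follows about the factor. Gclc and Gsr were not searched, as no promoter was at hand for them.

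The first question was whether the transcripts of these enzymes differ between HFD and LFD hepatocytes. With all 5 mice, none of the genes passed the test: 8 of the 10 had enough UMIs to be tested, and 0 of the 8 had an adjusted p under 0.05 in limma voom on UMIs summed per mouse, against 0.221% of all 3614 genes tested. None of the 8 had an unadjusted p under 0.05, and limma-trend on the same sums also called 0. Their median log2 fold change was 0.18, against -0.079 over all genes tested. Without HFD mouse 1, Gclc was called higher in HFD mice, as 1 of 8 genes, when 3.38% of 3670 genes were called and 1.28% were called higher. Together the 10 genes took 1.27%, 0.865% and 1.07% of UMIs in HFD mice 1, 2 and 3, against 1.03% and 1.02% in LFD mice 1 and 2, so HFD mice lay on both sides of the LFD mice. The p-values draw on these few mice only. They rest on the spread between these animals, weighted by depth of counts and moderated by the spread of all genes tested.

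Gclc, the catalytic subunit (chromosome 9, 77754535 to 77794485, plus strand, GENCODE annotation of mm10), had 287, 340 and 222 CPM in HFD mice 1, 2 and 3, against 159 and 175 CPM in LFD mice 1 and 2. Each HFD mouse was above both LFD mice, a separation that 23.2% of all tested genes showed in one direction or the other and 8.88% showed with HFD above. The counts behind these levels were 8, 223 and 13 UMIs in HFD mice, against 71 and 54 UMIs in LFD mice, so the exact Poisson 95% interval of HFD mouse 1 ran from 124 to 565 CPM, while that of HFD mouse 2 ran from 296 to 387 CPM. The means were 283 ± 58.7 CPM in HFD mice (SD, n = 3) and 167 ± 11.2 CPM in LFD mice (SD, n = 2). The log2 fold change was 0.80 (SE 0.43, 95% interval -0.13 to 1.73, adjusted p = 0.988). Without HFD mouse 1 it was 0.89 (SE 0.24, 95% interval 0.39 to 1.39, adjusted p = 0.0484). HFD mouse 3 has a raw-read name of another form than the other 4 mice, and without it the value was 0.97 (SE 0.52, adjusted p = 0.789). Over the 12 alternatives run on the unsmoothed table, the log2 fold change of Gclc ran from 0.39 to 0.97 and its adjusted p from 0.0484 to 1.00, while in the smoothed table the difference was 0.038, with no test.

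Gclm, the modifier subunit (chromosome 3, 122245557 to 122270732, plus strand), had 179, 297 and 205 CPM in HFD mice 1, 2 and 3, against 253 and 275 CPM in LFD mice 1 and 2, so the groups overlapped. Its log2 fold change was -0.13 (SE 0.41, 95% interval -1.03 to 0.77), and 0.058 (SE 0.22) without HFD mouse 1. The number of Gclc UMIs per Gclm UMI was 1.60, 1.14 and 1.08 in HFD mice, against 0.628 and 0.635 in LFD mice. This ratio was formed after the values had been seen and is given without a test. Its exact 95% counting interval was 0.939 to 1.39 for HFD mouse 2, against 0.460 to 0.853 for LFD mouse 1 and 0.443 to 0.904 for LFD mouse 2. Those of HFD mice 1 and 3, which had few UMIs, covered the ratios of both groups.

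Gsr, which recycles oxidised glutathione, had 35.8, 54.8 and 102.6 CPM in HFD mice 1, 2 and 3, against 44.8 and 51.8 CPM in LFD mice 1 and 2. The groups overlapped, and HFD mouse 1 rested on 1 UMI and HFD mouse 3 on 6. The log2 fold change was 0.40 (SE 0.54, 95% interval -0.77 to 1.56), and 0.25 (SE 0.32) without HFD mouse 1.

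**Figure D1:**
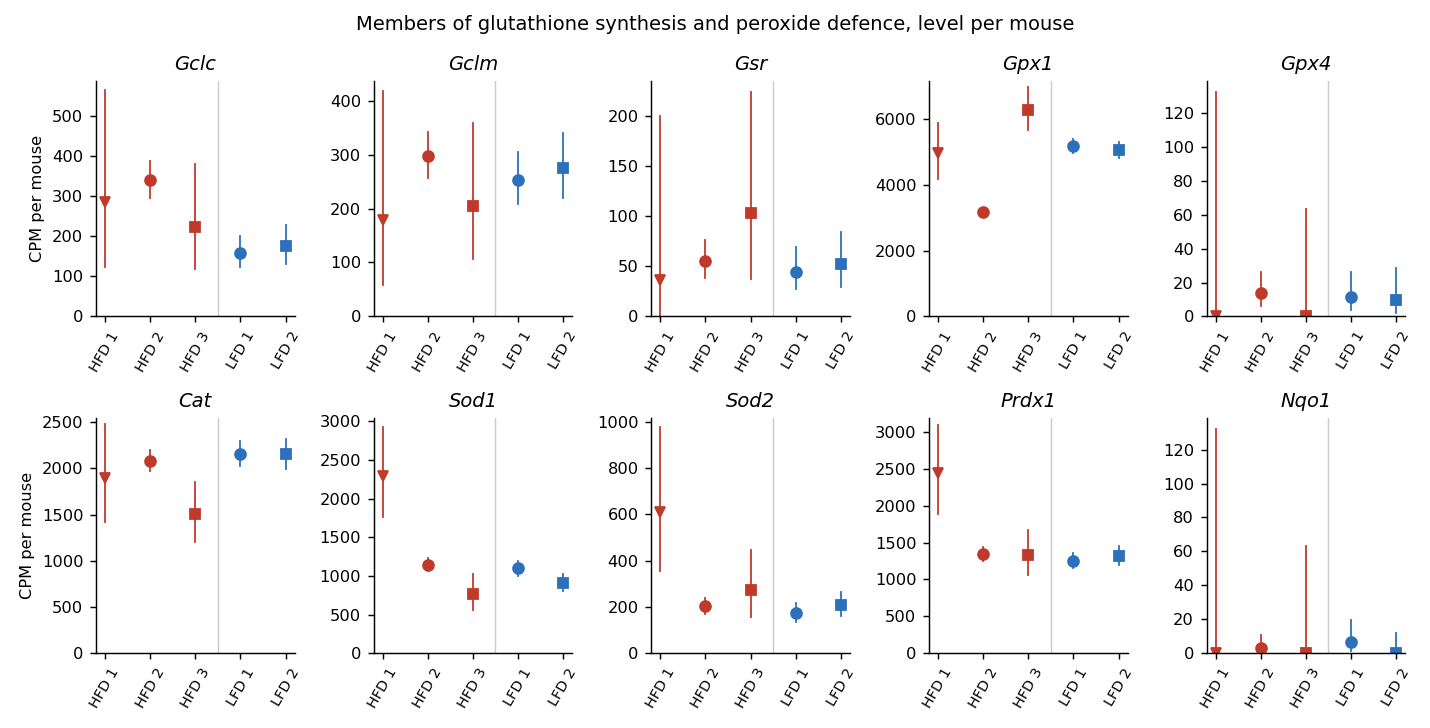
Level of each gene in each mouse, in CPM on a linear axis that starts at 0 and has its own scale in each panel, with HFD mice left of LFD mice and bars for the exact Poisson 95% interval. For Gclc the 3 HFD mice (222 to 340 CPM) lie above the LFD mice (159 and 175 CPM), and the Gclc interval of HFD mouse 1 (124 to 565 CPM) is the widest of the 5.

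Among the enzymes that remove hydrogen peroxide, Gpx1, the main cytosolic glutathione peroxidase of liver, had 4982, 3170 and 6294 CPM in HFD mice 1, 2 and 3, against 5189 and 5064 CPM in LFD mice 1 and 2. HFD mice 2 and 3 lay on opposite sides of the LFD mice, and the counts were large (139, 2082 and 368 UMIs in HFD mice, 2319 and 1565 UMIs in LFD mice). The log2 fold change was -0.40 (SE 0.26, 95% interval -0.96 to 0.15), -0.36 (SE 0.19) without HFD mouse 1 and 0.21 (SE 0.23) without HFD mouse 2. Cat, which breaks down hydrogen peroxide in peroxisomes, had 1899, 2083 and 1505 CPM in HFD mice, against 2155 and 2152 CPM in LFD mice. Every HFD mouse was below both LFD mice, as was so for 14.3% of all tested genes, and the log2 fold change was -0.22 (SE 0.28, 95% interval -0.82 to 0.39), or -0.23 (SE 0.17) without HFD mouse 1. Prdx1, a cytosolic peroxiredoxin that thioredoxin reduces, had 2437, 1341 and 1334 CPM in HFD mice, against 1255 and 1320 CPM in LFD mice. Every HFD mouse was above both LFD mice, as was so for 8.88% of all tested genes. HFD mice 2 and 3 exceeded LFD mouse 2 only narrowly, within their counting intervals (1254 to 1433 and 1054 to 1665 CPM). Of the 68 Prdx1 UMIs of HFD mouse 1, 36 came from 1 of its 5 cells. The log2 fold change was 0.16 (SE 0.30) with all mice and 0.034 (SE 0.15, 95% interval -0.29 to 0.36) without HFD mouse 1.

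For the superoxide dismutases, Sod1 had 2294, 1145 and 770 CPM in HFD mice 1, 2 and 3, against 1097 and 906 CPM in LFD mice 1 and 2. HFD mouse 1 was the highest and HFD mouse 3 the lowest of all, and the log2 fold change was 0.19 (SE 0.36), or 0.0023 (SE 0.20, 95% interval -0.41 to 0.42) without HFD mouse 1. Of the 64 Sod1 UMIs of HFD mouse 1, 39 came from 1 of its 5 cells. Sod2, the mitochondrial enzyme, had 609, 202 and 274 CPM in HFD mice, against 172 and 207 CPM in LFD mice, with overlap. Its log2 fold change of 0.49 (SE 0.47) was 0.20 (SE 0.22) without HFD mouse 1. Of the 17 Sod2 UMIs of that mouse, 13 came from 1 cell.

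Gpx4, the glutathione peroxidase that reduces lipid peroxides in membranes, and Nqo1, a quinone reductase and widely used NRF2 target, were too sparse to test. Gpx4 had 17 UMIs in all 454 cells, which made 13.7 CPM in HFD mouse 2 and 0 UMIs in HFD mice 1 and 3, against 11.2 and 9.71 CPM in LFD mice 1 and 2. Nqo1 had 5 UMIs in all, of which 2 were in HFD mouse 2 and 3 in LFD mouse 1. In HFD mouse 1 a count of 0 allows up to 108 CPM (3 UMIs of the library), and for HFD mouse 3 this limit is 51.3 CPM, so neither gene's level in these mice could be told from that of the others at this depth.

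**Figure D2:**
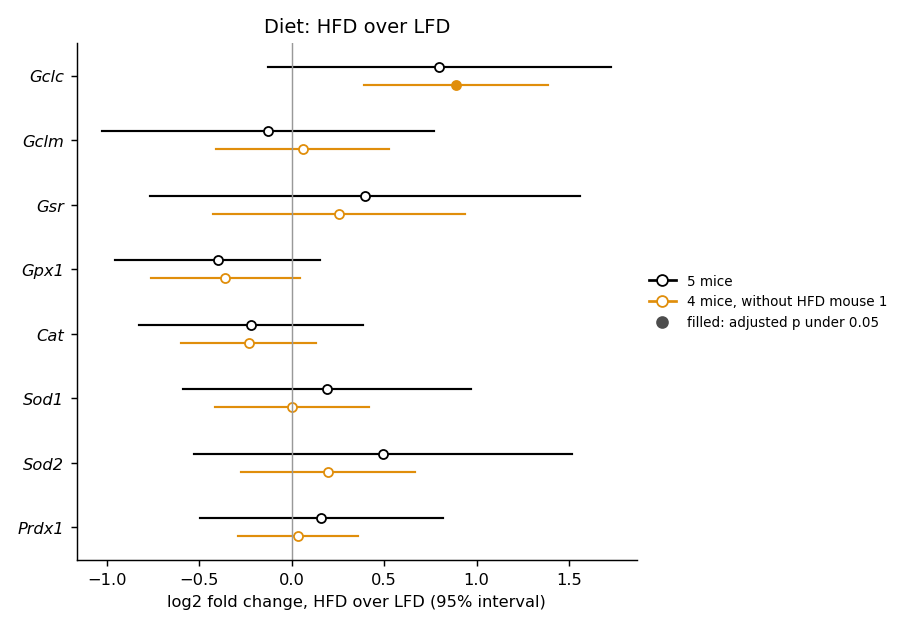
Fitted log2 fold change, HFD over LFD, of the 8 genes tested, with 95% intervals from limma voom, for all 5 mice (black) and without HFD mouse 1 (orange). The filled point is Gclc without HFD mouse 1 (0.89, adjusted p = 0.0484), and every interval with 5 mice includes 0.

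The share of hepatocytes with a UMI was compared after thinning each cell to 1728 UMIs, since depth sets such shares. This kept 5 of 5, 134 of 208 and 14 of 25 cells in HFD mice 1, 2 and 3, against 114 of 132 and 74 of 84 cells in LFD mice 1 and 2. Gclc was found in 32.7%, 47.4% and 29.0% of HFD cells, against 23.8% and 23.3% of LFD cells, so all HFD mice were above the LFD mice. Sod2 was found in 44.1%, 30.2% and 35.0% of HFD cells, against 24.8% and 26.4% of LFD cells, and here too the groups did not overlap. Cat was found in 84.1%, 95.4% and 95.4% of HFD cells, against 96.1% and 96.7% of LFD cells, with all HFD mice below. For these 3 genes the two-sided exact permutation p over mice was 0.2, the smallest that 3 against 2 mice can give, and 0.667 after adjustment over the 10 genes. Shares did not overlap between groups for 21.2% of all 6054 genes compared (HFD above for 4.61%, below for 16.6%). Without HFD mouse 1, the groups were apart for 5 genes (Gclc, Gsr, Cat, Sod2 and Prdx1), as they were for 37.3% of all genes. The exact permutation p was then 0.333 for each, the smallest that 2 against 2 mice can give, and 0.667 after adjustment. Without thinning, Gclc was found in 40.0%, 59.1% and 40.0% of HFD cells, against 39.4% and 42.9% of LFD cells, which overlap, as do Sod2 and Cat. Gpx4 was then the 1 gene with groups apart, at 0%, 2.88% and 0% of HFD cells, against 3.79% and 3.57% of LFD cells, on 17 UMIs in all, where 27.9% of all genes had groups apart. Thinned to 1000 UMIs, Gclc alone of the 10 kept groups apart, at 24.2%, 29.9% and 22.6% of HFD cells, against 15.1% and 15.7% of LFD cells, where 20.3% of all genes had groups apart.

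Of the other members, Gpx1 was found in at least 99.4% of thinned cells in every mouse, so its share of positive cells could hardly vary. Prdx1 was found in 63.1%, 88.7% and 92.3% of HFD cells, against 84.4% and 84.3% of LFD cells, and Sod1 in 93.2%, 79.2% and 64.5% of HFD cells, against 82.0% and 75.6% of LFD cells. A share of HFD mouse 1 rests on 5 cells, and its Prdx1 value was the lowest although its summed level was the highest. Gclm was found in 13.8%, 41.1% and 29.7% of HFD cells, against 34.9% and 35.4% of LFD cells, and Gsr in 4.16%, 8.43% and 18.3% of HFD cells, against 8.04% and 8.28% of LFD cells. Gpx4 and Nqo1 stayed at or under 1.94% in every mouse. The table holds no cell type that should lack these genes, so the share that free RNA gives was not measured.

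**Figure D3:**
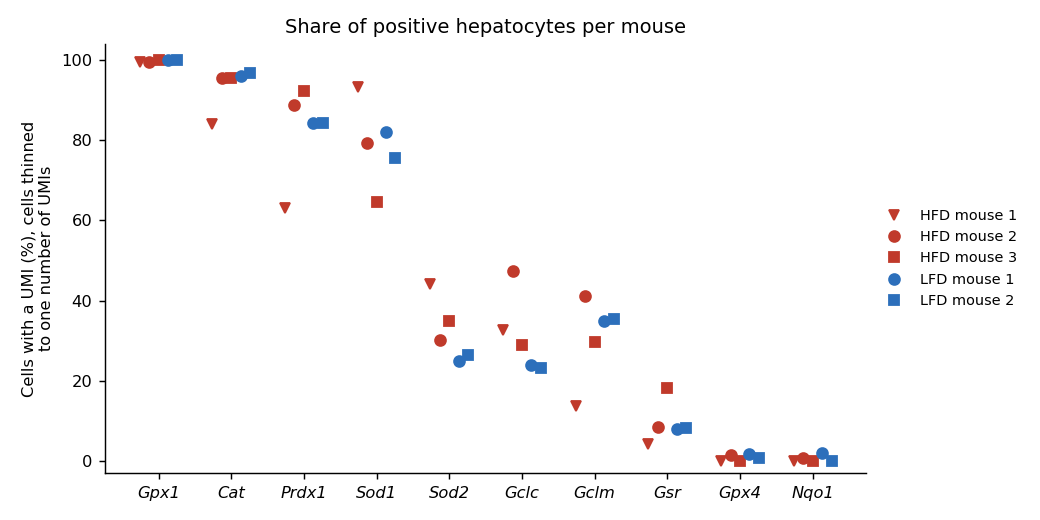
Share of hepatocytes with at least 1 UMI of each gene per mouse, in percent, after thinning each cell to 1728 UMIs, with the 3 HFD mice left of the 2 LFD mice. Gclc (29.0% to 47.4% in HFD mice, 23.3% and 23.8% in LFD mice) and Sod2 lie higher in HFD mice, and HFD mouse 1, with 5 cells, is the farthest from the others for Cat, Prdx1 and Gclm.

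The second question was whether the genes differ along the lobule. Within each mouse, hepatocytes were ordered by UMIs of 19 pericentral over 21 periportal landmark genes, on a log scale, none of which is among the 10, and split at the median into a pericentral and a periportal side. The pericentral landmarks made up 0.859% of UMIs on the pericentral side of HFD mouse 2, against 0.0762% on its periportal side. In the same order the shares were 0.185% and 0.0723% in HFD mouse 1, and 0.546% and 0.151% in HFD mouse 3. They were 1.00% and 0.183% in LFD mouse 1, and 1.08% and 0.101% in LFD mouse 2. These shares are a description only, because these genes set the ranking. HFD mouse 1 had 2 cells on its pericentral and 3 on its periportal side. Sides differed in depth. Cells had a median of 7040 UMIs on the pericentral and 2793 on the periportal side of HFD mouse 1, 2177 and 2192 in HFD mouse 2, and 1906 and 1791 in HFD mouse 3. The medians were 2068 UMIs on the pericentral and 3426 on the periportal side of LFD mouse 1, and 2756 and 3408 in LFD mouse 2. The part of depth in the results was not tested.

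Sod1 (chromosome 16, 90220754 to 90226329, plus strand) was higher on the pericentral side in 5 of 5 mice. HFD mouse 1 had 3551 CPM on the pericentral and 1013 CPM on the periportal side, HFD mouse 2 had 1474 against 775 CPM, and HFD mouse 3 had 999 against 586 CPM. On the pericentral side of HFD mouse 1, 39 of 50 Sod1 UMIs came from 1 cell. LFD mouse 1 had 1359 CPM on the pericentral and 925 CPM on the periportal side, and LFD mouse 2 had 1116 and 738 CPM. The pericentral level was thus above the periportal one in each mouse of either diet, which was so for 4.57% of all 1664 genes tested. The pericentral over periportal ratio was 1.90 for HFD mouse 2 (exact 95% counting interval 1.63 to 2.23) and 1.71 for HFD mouse 3 (0.908 to 3.26). It was 1.47 for LFD mouse 1 (1.23 to 1.76) and 1.51 for LFD mouse 2 (1.19 to 1.93).

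Blocking on mouse, with all 5 mice, the log2 fold change of Sod1, pericentral over periportal, was 0.65 (SE 0.20, 95% interval 0.18 to 1.12), with an unadjusted p of 0.0132 in limma voom and an adjusted p = 0.67. It did not pass the threshold, and neither did any other of the 7 genes tested, where 0.0601% of all genes were called. Sod1 was the 1 gene of the 7 with an unadjusted p under 0.05, as had 7.03% of all genes. Without HFD mouse 1, whose sides hold 2 and 3 cells, Sod1 was called higher on the pericentral side, at 0.60 (SE 0.12, 95% interval 0.34 to 0.85, adjusted p = 0.00417). In that fit 6.87% of 1993 genes were called, 2.86% were called higher on the pericentral side, and the pericentral side was higher in every mouse for 15.7% of genes. Over all 10 alternatives the value ran from 0.58 to 1.01 and the adjusted p from 0.00417 to 0.766. Without HFD mouse 3 it was 0.66 (SE 0.24, adjusted p = 0.364).

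In 3 bins along the axis, from the pericentral over the middle to the periportal bin, HFD mouse 2 had 1663, 995 and 757 CPM of Sod1. HFD mouse 3 had 1340, 425 and 675 CPM. In the same order, LFD mouse 1 had 1501, 1126 and 823 CPM and LFD mouse 2 had 1525, 661 and 728 CPM. The pericentral bin was the highest in all 4 mice, and in HFD mouse 3 and LFD mouse 2 the middle bin was the lowest. The middle and periportal bins there rested on close counts, 10 and 12 UMIs in HFD mouse 3 and 76 and 84 UMIs in LFD mouse 2. Thinned shares of Sod1-positive cells were 92.7% on the pericentral and 66.1% on the periportal side of HFD mouse 2. In HFD mouse 3 they were 85.8% and 43.3%, on only 7 cells per side. They were 86.7% and 78.1% in LFD mouse 1, and 77.4% and 74.0% in LFD mouse 2. The annotation places Scaf4 on the opposite strand over part of Sod1, and the strand setting of the counting is not stated in what was used here. Scaf4 had 12 UMIs in all cells, against 1631 for Sod1.

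**Figure D4:**
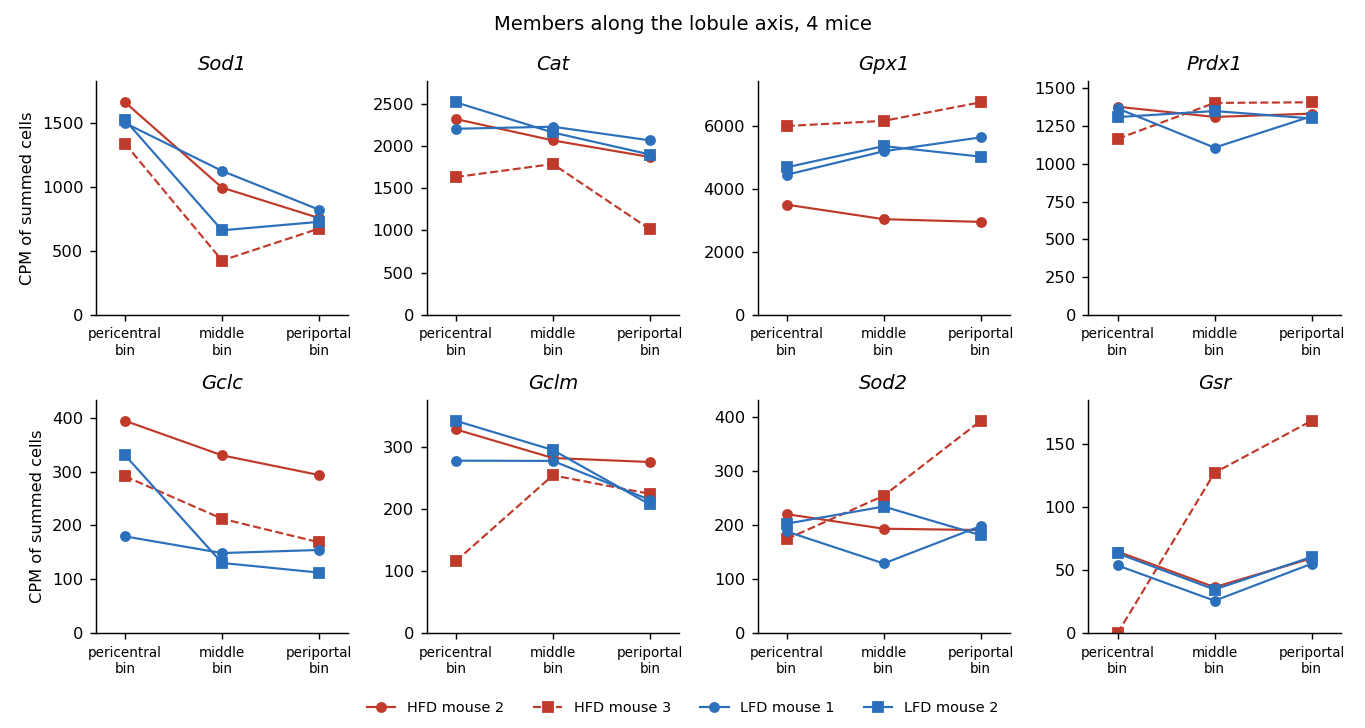
Level of 8 genes in 3 equal bins of each mouse's cells, from the pericentral bin to the periportal bin, in CPM on axes that start at 0, for the 4 mice other than HFD mouse 1 (red HFD, blue LFD). Sod1 is highest in the pericentral bin of each mouse (1340 to 1663 CPM, against 675 to 823 CPM in the periportal bin), while Gpx1 and Prdx1 show no shared order.

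The other 6 genes tested did not differ detectably between sides. Without HFD mouse 1, the log2 fold changes, pericentral over periportal, were 0.22 (SE 0.19) for Gclc, 0.25 (SE 0.18) for Gclm, 0.12 (SE 0.10) for Cat, 0.0080 (SE 0.11) for Prdx1, -0.14 (SE 0.20) for Sod2 and -0.17 (SE 0.092) for Gpx1, with adjusted p-values of 0.35 and above. In bins, Gclc had 394, 330 and 294 CPM from the pericentral to the periportal bin of HFD mouse 2 and 291, 213 and 169 CPM in HFD mouse 3, against 179.8, 149 and 155 CPM in LFD mouse 1 and 330.3, 131 and 113 CPM in LFD mouse 2. Its pericentral bin was the highest in these 4 mice, with 5 UMIs behind that of HFD mouse 3, although the sides did not differ past the threshold. The Gclc bins of LFD mouse 1 rested on 20, 23 and 28 UMIs. How many of all genes had the pericentral bin highest was not counted, while 15.7% had the pericentral side higher in all 4 mice. The 95% interval of Prdx1 ran from -0.23 to 0.24 and that of Gpx1 from -0.36 to 0.021. With all 5 mice, Gclc was at -0.57 (SE 0.71) and Gclm at -0.54 (SE 0.61), the opposite sign, since HFD mouse 1 had 0 UMIs of either gene in its 2 pericentral cells and 8 and 5 UMIs in its 3 periportal cells. Gpx1 had 3349 CPM on the pericentral and 2969 CPM on the periportal side of HFD mouse 2, but 4694 and 5513 CPM in LFD mouse 1, so its order differed between mice. Cat had 2312 CPM on the pericentral and 1825 CPM on the periportal side of HFD mouse 2, and 2180 and 2139 CPM in LFD mouse 1.

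Whether the difference along the axis changed with diet was tested as an interaction, HFD minus LFD. It was called for 0 of the 7 genes (0 with an unadjusted p under 0.05) and for 0% of all 1664 genes (2 genes with an unadjusted p under 0.05). For Sod1 it was 0.36 (SE 0.47, 95% interval -0.74 to 1.46, adjusted p = 0.979), and 0.28 (SE 0.23, 95% interval -0.22 to 0.78) without HFD mouse 1, where 0 of the 7 and 0.0502% of 1993 genes were called. These intervals leave room for a sizeable difference in either direction.

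**Figure D5:**
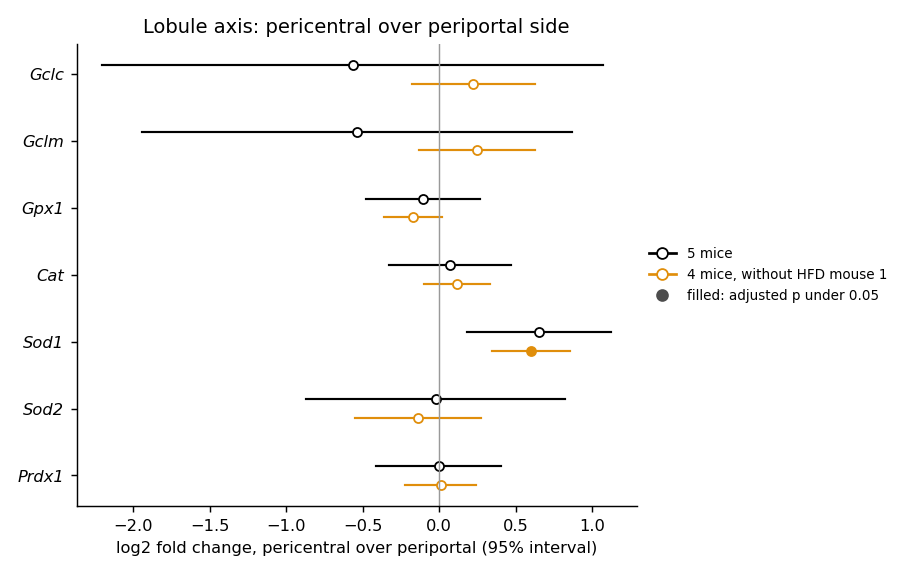
Fitted log2 fold change, pericentral over periportal side, of the 7 genes tested, with 95% intervals from limma voom blocked on mouse, for all 5 mice (black) and without HFD mouse 1 (orange). Sod1 is at 0.65 with 5 mice and at 0.60 (adjusted p = 0.00417, filled) without HFD mouse 1, and the other genes' intervals include 0.

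The wider redox pathway was described from a list of 91 genes, of which 90 are in the table. For diet, 60 could be tested and 0 passed with 5 mice in limma voom, where 0.221% of all genes did. Before adjustment 0 of the 60 were under 0.05, against 5.09% of all genes. Leaving out HFD mouse 1, 0 of 60 passed, against 3.38% of all genes, and 7 (11.7%) were under 0.05 before adjustment, against 18.2% of all genes. With 5 mice, the median log2 fold change of the 60 genes was -0.081, close to the -0.079 of all genes tested. Without HFD mouse 1 it was 0.0051, against -0.0023 over all genes tested. By role, the median with 5 mice ranged from -0.76 for the 2 methionine sulphoxide reductases to 0.32 for the 4 tested genes of glutathione synthesis, supply and turnover. Without HFD mouse 1 these 2 medians were -0.37 and 0.094, and the highest was 0.40, for other glutathione-dependent enzymes. Among genes of glutathione supply, Slc25a39, which carries glutathione into mitochondria, had 71.7, 196 and 291 CPM in HFD mice 1, 2 and 3, against 275 and 269 CPM in LFD mice 1 and 2. Oplah, which opens oxoproline to glutamate, had 466, 39.6 and 85.5 CPM in HFD mice, against 44.8 and 25.9 CPM in LFD mice, with 13 UMIs, all in 1 cell, behind the high value of HFD mouse 1.

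Among partners of the 10 genes, Txn1, the thioredoxin that reduces Prdx1, had 2043, 343 and 376 CPM in HFD mice 1, 2 and 3, against 474 and 392 CPM in LFD mice 1 and 2. HFD mouse 1 alone was high, with 52 of its 57 Txn1 UMIs in 1 of its 5 cells, while HFD mice 2 and 3 were below both LFD mice. Ccs, the copper chaperone of Sod1, had 287, 210 and 359 CPM in HFD mice, against 242 and 327 CPM in LFD mice, and overlapped. Park7, an oxidation-sensing protein, had 251, 370 and 308 CPM in HFD mice, against 452 and 482 CPM in LFD mice, with all HFD mice lower, as for 14.3% of all tested genes, and no call. Prdx6 had 502, 528 and 410 CPM in HFD mice, against 629 and 589 CPM in LFD mice, likewise lower in each HFD mouse and not called.

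Idh1, a source of the NADPH that Gsr uses, had 1003, 442 and 274 CPM in HFD mice, against 304 and 430 CPM in LFD mice. Of the 28 Idh1 UMIs of HFD mouse 1, 22 came from 1 cell. Taldo1 of the pentose phosphate pathway had 35.8, 111 and 103 CPM in HFD mice, against 119 and 133 CPM in LFD mice. Glo1, which clears methylglyoxal with glutathione, had 538, 367 and 342 CPM in HFD mice, against 286 and 210 CPM in LFD mice, so all HFD mice were higher, as for 8.88% of all tested genes, again without a call. Esd, which hydrolyses a glutathione conjugate of formaldehyde, had 215, 335 and 359 CPM in HFD mice, against 242 and 236 CPM in LFD mice. The methionine sulphoxide reductase Msrb1 had 0 UMIs in HFD mouse 1 and 298 and 308 CPM in HFD mice 2 and 3, against 461 and 382 CPM in LFD mice, and Msra had 108, 136 and 205 CPM in HFD mice, against 132 and 236 CPM in LFD mice.

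The ferritin chains, which store iron, varied within HFD mice: Fth1 had 6128, 2783 and 3352 CPM in HFD mice 1, 2 and 3, against 2963 and 2841 CPM in LFD mice 1 and 2, and Ftl1 had 3512, 1468 and 3096 CPM in HFD mice, against 2171 and 2061 CPM in LFD mice. Of the 171 Fth1 UMIs of HFD mouse 1, 139 came from the 2 cells of its pericentral side. Uox, a peroxide-forming urate oxidase of peroxisomes, overlapped between the groups, with 2509, 2081 and 2651 CPM in HFD mice, against 2504 and 2773 CPM in LFD mice. The selenium carrier Selenop (listed as Sepp1) had 3512, 2739 and 2702 CPM in HFD mice, against 2867 and 2773 CPM in LFD mice, and the selenoprotein Selenof (listed as Sep15) had 71.7, 154 and 205 CPM in HFD mice, against 172 and 149 CPM in LFD mice.

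Along the lobule, 42 genes of the wider list could be tested and 0 passed with 5 mice. Before adjustment 4 (9.52%) were under 0.05, against 7.03% of all genes. Without HFD mouse 1, 6 of 45 passed, where 6.87% of all genes did. Of those named here, Blvrb, Dio1 and Abcc3 fall outside the rule for named genes in the test with 5 mice, while Uox and Sepp1 meet it by their level. All were picked here after their values had been seen. Blvrb, a flavin and biliverdin reductase (log2 fold change 1.43, adjusted p = 0.000913), the deiodinase Dio1 (1.10, adjusted p = 0.00904) and the conjugate exporter Abcc3 (1.43, adjusted p = 0.0287) were higher on the pericentral side. The urate oxidase Uox (-0.56, adjusted p = 0.00498) and Sepp1 (-0.39, adjusted p = 0.0207) were lower there, although HFD mouse 3 had 2804 CPM of Uox on the pericentral and 2528 CPM on the periportal side, and of Sepp1 2728 and 2682 CPM. Blvrb had 256 CPM on the pericentral and 103 CPM on the periportal side of HFD mouse 2, and 192 against 123 CPM in HFD mouse 3. It had 238 against 92.5 CPM in LFD mouse 1 and 321 against 52.3 CPM in LFD mouse 2, so the pericentral level was higher in each of the 4 mice. Dio1 and Abcc3 were also higher on that side in these 4 mice, but not in HFD mouse 1. In HFD mouse 3 Dio1 had 1 UMI on each side, and Abcc3 had 6 UMIs on the pericentral and 2 on the periportal side.

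How the genes varied from cell to cell was described in the 3 mice with at least 50 cells (424 cells). For Sod1, the ratio of the variance to that of Poisson counting at each cell's depth was 2.46 in HFD mouse 2, against 1.50 and 2.31 in LFD mice 1 and 2, while the median of genes with 2 to 8 UMIs per cell was 2.09 in HFD mouse 2, against 1.26 in both LFD mice. Prdx1 had 1.38 in HFD mouse 2, against 1.23 and 1.67 in LFD mice 1 and 2. Gclc, with a mean of 0.5 to 2 UMIs per cell, had 1.39 in HFD mouse 2, against 0.994 and 0.893 in LFD mice 1 and 2, where genes of that range had medians of 1.39, against 1.07 and 1.08. Gpx1 had 2.56 in HFD mouse 2, against 2.21 and 1.87 in LFD mice, below the medians of genes with over 8 UMIs per cell (5.63, against 2.35 and 2.75). The cells of a mouse share its library, and these ratios carry no test.

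Across these cells, with values centred per mouse, correlations measured among the 10 genes were low: the median Pearson r of their 45 pairs was 0.0085, and the highest was 0.20 between Cat and Sod1 (0.28 within HFD mouse 2, 0.12 within LFD mouse 1 and 0.087 within LFD mouse 2). These pairs include Gpx4 and Nqo1, with 17 and 5 UMIs in all, and sparse counts hold r near 0. Pairs of like abundance were not compared, so the low values do not tell whether the genes vary together. The cells of a mouse share its library, and these values carry no test. Of 430 other genes found in most cells, the 3 most like Sod1 were Acaa1b, a peroxisomal thiolase (r = 0.32), Rgn, itself one of the pericentral landmarks (r = 0.26), and Gm26924 (r = 0.25). Fabp1, the liver fatty acid binding protein, was most like Gpx1 (r = 0.29), followed by Apoa2 and Rbp4 (r = 0.27 and 0.26). Ndrg2, Aldh2 and Acaa1b were most like Cat (r = 0.26, 0.23 and 0.22), and Serpina1b, Apoa2 and Ttr most like Prdx1 (r = 0.23, 0.23 and 0.21). For Sod2 (Ndufa7, Cth, C9), Gclc (Vamp8, Gstm1, Glud1) and Gclm (Pank1, Ghr, Esd), r ran from 0.15 to 0.21.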

How the data were processed

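Drop-seq UMIs were aligned with STAR 2.6.0a to mm10, per the submitters' processing notes. The authors deposited an unsmoothed and a smoothed table of natural log values. In the unsmoothed table these are ln(1 + UMIs per 10000 UMIs of the cell), and whole UMIs were recovered for 100% of values (within 0.001 of a whole number), with each cell summing to 10000. Sums of UMIs per mouse entered limma voom (limma 3.58.1, R 4.3.3), scaled by trimmed-mean factors, and p-values were adjusted over all genes tested by Benjamini-Hochberg, with a threshold of 0.05. Genes needed 32.4 CPM (10 UMIs in the median library) in at least 2 mice and 15 UMIs in all. For the lobule, UMIs were summed per mouse and side, with mouse as a block and a minimum of 64.7 CPM in 5 of the sums. The landmark score used a pseudocount of 1. No doublet caller was run, and all 454 cells were used. Poisson and ratio intervals cover counting error only, while intervals of fold changes come from the fit over mice. Positive-cell shares are expectations over all draws of the thinned UMIs, and cells below that depth were left out. Alternatives were other normalizations, filters, scores, a limma fit on log values and leaving out each mouse. Of the wider list, genes past the threshold with 5 mice and, for a role with none, the 2 of highest mean CPM were named, apart from 1 gene that is not reported here. The 10 genes and the lists were chosen with earlier results of these data known. Gene places are from GENCODE vM21. Python 3.11.15 was used for sums and shares.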

Additional observations from a re-analysis of the deposited data

How the results depend on the processing

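With 5 mice, 0 of the 8 genes tested passed the diet test, and leaving out 1 mouse at a time gave 0 to 1 (Gclc, without HFD mouse 1). Over all genes, the 8 diet calls became 0 to 124 with 1 mouse left out, 2 with no filter beyond 1 UMI, 0 with a minimum of 50 UMIs, 0 with limma-trend, 14 with means of the deposited logs, 2 without the deepest 5% of cells and 29 with mouse number as a replicate block, which called 0 of the 10 genes. Deviations from the diet mean correlated at 0.033 between the mice numbered 1 and at 0.066 between those numbered 2, over 3614 genes. With 2 LFD mice and 5 cells in HFD mouse 1, these values cannot tell whether mouse numbers pair the samples. The median diet log2 fold change of the 8 genes tested, 0.18, was 0.046 to 0.31 with 1 mouse left out (7 genes tested without HFD mouse 2). It was 0.080 over all 10 genes with no filter beyond 1 UMI, and 0.30 over the 8 with limma-trend. That fit also moved the median of all genes, to -0.30 against -0.079. Along the lobule, leaving out 1 mouse gave 0 to 1 of the 7 genes tested, 0 to 6 of the wider list and 0 to 137 of all genes, against 1 of all genes with 5 mice. Other settings gave 0 for the outer bins, 0 with 4 landmarks per side and 2 with a minimum of 50 UMIs. The interaction gave 0 to 1 calls over all genes. Thinned shares did not overlap for 3 genes (21.2% of all genes), 1 unthinned (27.9%) and 1 thinned to 1000 UMIs (20.3%). With 1 mouse left out this was so for 3 to 5 genes. It was so for 37.3% of all genes without HFD mouse 1 (5 of the 10), and this share was not computed for the other mice left out. None of the values that changed sign had been called. Without the deepest 5% of cells, the diet value of Gclm was -0.93, against -0.13, and the lobule value of Sod2 was -0.83 with 4 landmarks per side and -0.67 in the outer bins, against -0.022. With 1 mouse left out, diet values ran from -0.32 to 0.058 for Gclm and from -0.56 to 0.21 for Gpx1; lobule values ran from -1.63 to 0.22 for Gclc, -1.31 to 0.25 for Gclm, -0.17 to 0.026 for Gpx1, -0.14 to 0.27 for Sod2 and -0.016 to 0.022 for Prdx1; the Cat interaction ran from -0.11 to 0.18. Scaled by total UMIs only, lobule values were 0.029 for Gpx1, 0.16 for Sod2 and 0.14 for Prdx1, where the median of all genes was -0.12 against -0.29. Lobule values with a minimum of 50 UMIs were 0.0041 for Sod2 and 0.020 for Prdx1, and with 4 landmarks per side 0.13 for Prdx1. Interactions were -0.92 for Sod2 and 0.18 for Prdx1 in the outer bins, and -0.75 and 0.31 with 4 landmarks per side. In the smoothed table the diet difference was -0.045 for Sod1 and -0.0015 for Gsr. The cause was not tested for any of these. Leaving Alb out of the score, chosen after seeing that it makes up 70.7% of periportal landmark UMIs, changed no call among the 10 genes. Depth limits HFD mouse 1 (5 cells) and the sparse genes Gsr, Gpx4 and Nqo1 most.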

Other observations

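The second deposited table, smoothed by MAGIC per its name (a method that borrows values from similar cells), gave a different picture of the same 10 genes. Its mean log2 values did not overlap between HFD and LFD mice for 8 of the 10 (all but Gclm and Gsr), yet the differences, HFD minus LFD, ran only from -0.058 for Gpx1 to 0.038 for Gclc. For Sod1 the difference was -0.045 in the smoothed table, against 0.20 in the unsmoothed one. Over 5881 genes, 86% did not overlap between the diets in the smoothed table, against 24.5% in the unsmoothed one, so a separation of mice in smoothed values says little about any one of these genes.

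Gpx4 had 17 UMIs in 454 cells, of which 9 were in HFD mouse 2 and 4 of those in a single cell. The count was low in every mouse, but in HFD mice 1 and 3 a count of 0 allows up to 108 and 51.3 CPM. The cause of the low count was not tested.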
